A study of Mus musculus with 12 samples.

Results

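Ly6Chi and Ly6Clo monocytes from the bone marrow of adult mice were compared by RNA sequencing of sorted cells. The comparison takes the 6 monocyte libraries out of 12 libraries, chosen by their sample labels, with 3 libraries of Ly6Chi and 3 of Ly6Clo monocytes. The other 6 libraries are bone marrow macrophages of embryonic (eYFP+) or adult (eYFP-) origin, 3 of each, which here only help to estimate the spread of each gene and give a reference level for markers. All monocytes came from female C57BL/6J mice, aged 8 weeks by the study's methods. The study sorted monocytes from CD45+ cells lacking lymphocyte markers such as B220 and CD3, with low Gr1 and with CD11b, and divided them by the surface protein Ly6C. The labels name no reporter allele and no treatment for the monocytes, and they do not say whether the 3 replicates came from separate animals, so the p-values below measure the spread between these samples, which may be technical.

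Ly6Chi monocytes are the classical monocytes. They leave the marrow through the chemokine receptor CCR2, enter inflamed tissue and turn into macrophages and dendritic cells there. Ly6Clo monocytes crawl along the inner wall of small vessels and clear debris, and they depend on the transcription factor NR4A1. Much of the Ly6Clo pool derives from Ly6Chi cells, which in turn arise from marrow progenitors related to those of granulocytes.

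The 6 libraries held 26390927 to 38730531 counts each. Ly6Chi libraries resembled each other, with a Pearson's r of 0.987 to 0.988 across 19228 genes on the deposited variance-stabilised values, as did Ly6Clo replicates 1 and 3 (0.977). Ly6Clo replicate 2 lay apart, with 0.898 and 0.902 to its own group. It held 16434 detected genes against 22254 to 27634 in the other 5, and 580 of 10698 well-covered genes were at least 10-fold below both other Ly6Clo libraries, against at most 3 genes in any other library. Genes rich in G and C were low in it, with a median log2 ratio to its group of -0.999 where the median GC content was 57.1% and 0.51 where it was 41.1%. These values describe the library across genes, which do not stand for replicates. List counts are therefore also given without this library where they changed, and the called genes named below that were lost without it are listed.

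Throughout, a level is a normalized count, which is the deposited count divided by the size factor of its library, and 3 values in a row stand for replicates 1, 2 and 3. A difference is the log2 fold change of Ly6Chi minus Ly6Clo with its standard error (SE), and a gene is called where the DESeq2 adjusted p is under 0.05. In bulk libraries, fewer cells of a type and less RNA per cell cannot be told apart.

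The sorting markers were examined first. Ly6c2, which encodes the Ly6C antigen together with its neighbour Ly6c1, stood at 118800, 101500 and 99160 in Ly6Chi and at 1240, 581.5 and 951.8 in Ly6Clo monocytes. The group means differed 115-fold, and the edgeR adjusted p was 0.00265, while DESeq2 gave no adjusted p because an extreme count elsewhere in the series met its Cook's distance cutoff. Ly6c1 stood at 2133, 1891 and 2045 against 39.89, 28.14 and 26.41, a difference of 6.00 ± 0.50 (DESeq2 adjusted p = 9.20e-31). Both genes are close copies of each other, and the counting left out ambiguous reads, so the level of either is uncertain. Every library thus carried the Ly6C transcripts its label implies, Ly6Clo replicate 2 included. Itgam, the CD11b gene of the sort gate, was detected in all 6 (2287 to 9971) and had no DESeq2 adjusted p. Ptprc, the CD45 gene, differed by -0.15 ± 0.40 (DESeq2 adjusted p = 0.892). Adgre1, the gene of the F4/80 antigen, was lower in Ly6Chi monocytes, at 16580, 15580 and 18580 against 34630, 29000 and 38370 (-1.01 ± 0.28, DESeq2 adjusted p = 0.00819). In edgeR its adjusted p was 0.0504.

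**Figure D1:**
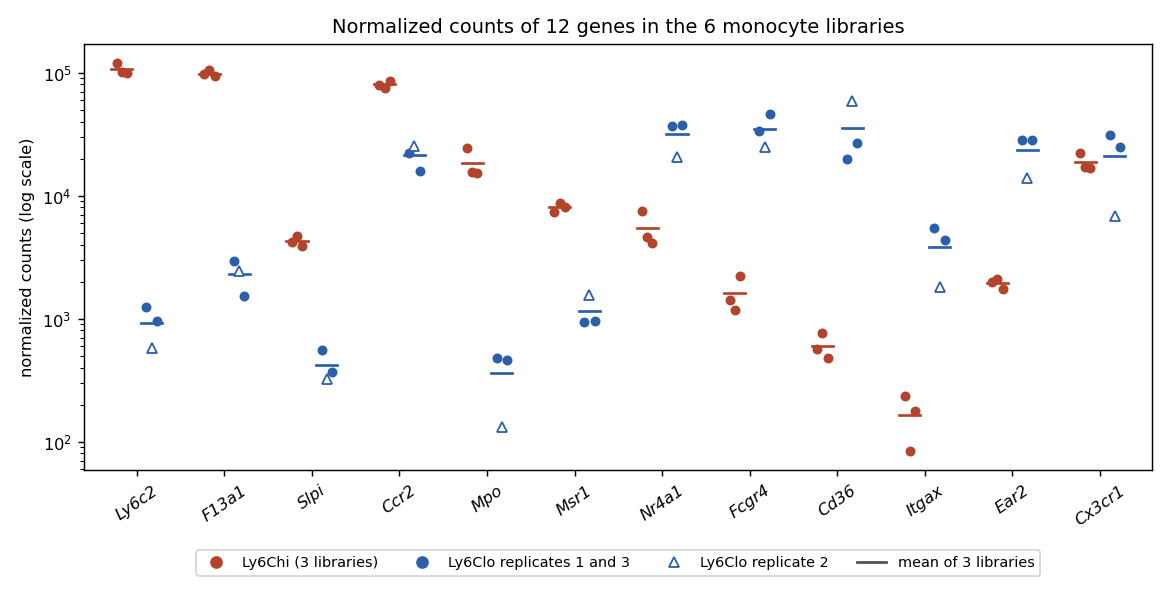
Normalized counts (log scale) of 12 genes in each monocyte library, with the mean of 3 libraries as a bar. Red points are Ly6Chi, blue points Ly6Clo replicates 1 and 3, and open triangles Ly6Clo replicate 2. F13a1, Slpi and Mpo lie higher in every Ly6Chi library, Nr4a1, Fcgr4 and Cd36 lie higher in every Ly6Clo library, and the groups overlap for Cx3cr1, where Ly6Clo replicate 2 (6815) is the lowest of the 6.

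Across the genome, 1860 of 21567 tested genes were called, which is 8.62% of them. Of these, 789 were higher in Ly6Chi monocytes (3.66%) and 1071 were lower (4.97%). On a single data set simulated with known changes, this fit exceeded the false calls that a threshold of 0.05 allows and edgeR did not. The DESeq2 counts can therefore not be taken as controlled at that rate, and edgeR counts are given with them. The simulated set held no library lying apart like Ly6Clo replicate 2, so it does not give the rate of either method on these data. Most calls were large: 1706 reached a 2-fold change and 451 a 16-fold change, 230 of them higher and 221 lower. Without Ly6Clo replicate 2 the fit called 1936 of 19964 genes (9.70%), 887 higher (4.44%) and 1049 lower (5.25%). Of the 1860 genes, 1409 were called again, 660 higher and 749 lower, none of the genes called in both fits changed direction, and 527 genes were called only without that library. The edgeR test called 829 of 19189 genes (4.32%), 348 higher (1.81%) and 481 lower (2.51%), of which 828 were among the DESeq2 calls. All 3 fits shared 822 genes. Without Ly6Clo replicate 2, edgeR called 1091 of 20677 genes (5.28%), 414 higher (2.0%) and 677 lower (3.27%). The count also depended on Ly6Chi libraries: it was 1219 without Ly6Chi replicate 1 and 1205 without Ly6Chi replicate 2. Of the 160 called genes that are named here, 31 were not called by edgeR: Adgre1, Cat, Ccl2, Ccr7, Cfp, Clec9a, Cpt1a, Ctsg, Epx, F10, Fpr1, H2-DMb1, H2-Eb2, Hes1, Id1, Il15, Itgal, Itgb1, Lbp, Ly6g, Maf, Mcpt8, Mmp25, Mmp9, Nr4a2, Pltp, Prg2, Rxra, Stat2, Thbs1 and Xcr1. Without Ly6Clo replicate 2, Ccl2, Cfp, H2-DMb1, H2-Eb2, Hes1, Itgal, Ly6g, Maf and Nr4a2 were not called, and Ccr7, Cd300e and Mmp9 had no adjusted p.

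**Figure D2:**
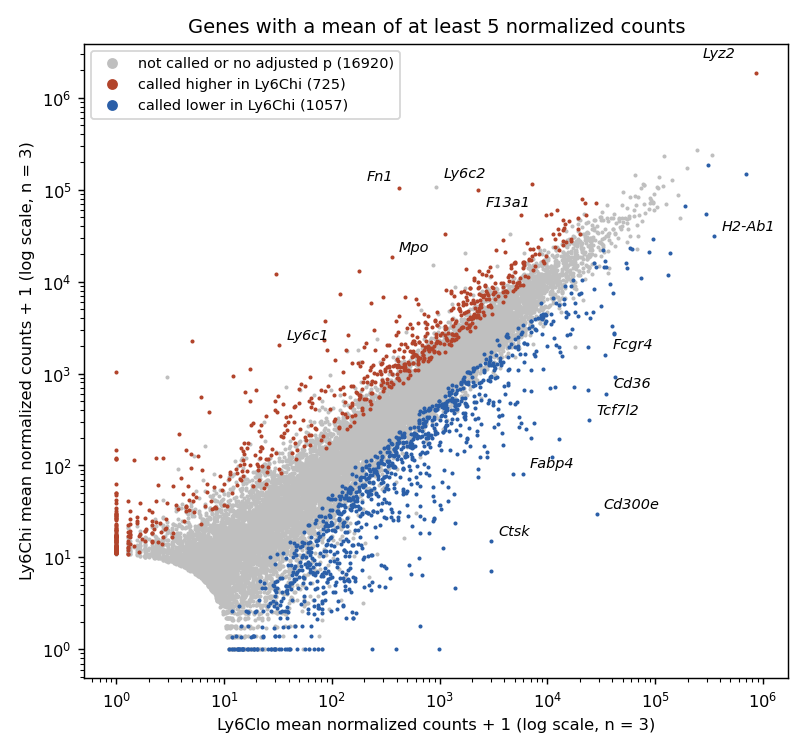
Mean normalized counts plus 1 in Ly6Clo (x axis) and Ly6Chi monocytes (y axis), both on log scales and each over 3 libraries. Red genes were called higher and blue genes lower in Ly6Chi monocytes, and Ly6c2 is grey because it had no DESeq2 adjusted p. F13a1, Fn1 and Mpo lie far above the diagonal, and Cd300e, Ctsk, Fabp4 and Cd36 far below it.

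The genes that led the higher side included a coagulation gene, secreted proteases and their inhibitors, and paired immunoglobulin-like receptors. F13a1, the A subunit gene of clot-stabilising factor XIII, stood at 96850, 104000 and 93370 in Ly6Chi and at 2914, 2444 and 1517 in Ly6Clo monocytes (5.42 ± 0.54, DESeq2 adjusted p = 3.05e-21). The groups did not overlap, which the rule for naming the leading genes required and which held for 28.1% of all tested genes. Ly6Clo replicate 2 lay close to its own group. Prtn3, the gene of the granule protease proteinase 3, stood at 4717, 3099 and 3438 against 94.22, 81.73 and 78.22 (5.47 ± 0.51). Slpi, an inhibitor of such proteases, stood at 4212, 4709 and 3909 against 556, 324.2 and 367.7 (3.36 ± 0.34). The receptor gene Lilra6 differed by 4.51 ± 0.34 and its relative Pira2 by 2.28 ± 0.25, and reads of such near-identical relatives may be split between them. Crybb1, which encodes a crystallin known from the eye lens, stood at 452.8, 480.9 and 748.3 against 3.395, 2.68 and 9.142 (6.77 ± 0.69), close to absent in Ly6Clo monocytes. The remaining leaders were the transcription factor gene Tfec (2.52 ± 0.26), Ms4a8a, Ak8, Ecm1, C1rl, the membrane fusion gene Stx3 and the interferon-inducible gene Ifi211, with differences from 2.49 (C1rl and Ifi211) to 5.86 (Ak8). For all 15 genes that led this side, Ly6c1 included, the adjusted p was at most 3.58e-16 in DESeq2 and at most 0.00231 in edgeR.

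The genes that led the lower side included survival genes, lipid-handling genes and genes of acid hydrolases. Bcl2a1d, whose protein A1 protects cells from apoptosis, stood at 298, 272 and 306.1 in Ly6Chi and at 5068, 6865 and 5240 in Ly6Clo monocytes, a difference of -4.29 ± 0.23 (DESeq2 adjusted p = 8.41e-72). Its near-identical copies Bcl2a1b and Bcl2a1a differed by -4.49 ± 0.28 and -3.99 ± 0.31, with an uncertain split of reads among the 3. Fabp4, a fatty acid carrier, stood at 80.6, 94.73 and 66.81 against 6029, 3400 and 8281 (-6.19 ± 0.36, DESeq2 adjusted p = 2.41e-63). Cd36, a receptor for oxidised lipids and dying cells, stood at 563.1, 759.1 and 479.8 against 19930, 58530 and 26900 (-5.87 ± 0.41), with the highest level in Ly6Clo replicate 2. The nuclear receptor gene Pparg, which controls fatty acid uptake and storage, moved the same way (-5.14 ± 0.38). Ctsk, the gene of the collagen-degrading cathepsin K, stood at 19.09, 15.79 and 7.289 against 2379, 2291 and 4330 (-7.73 ± 0.52, DESeq2 adjusted p = 8.15e-47), and Acp5, the gene of tartrate-resistant acid phosphatase, at 640.6, 589 and 833.4 against 7875, 11670 and 12090 (-3.94 ± 0.28). Both enzymes are best known from bone-resorbing osteoclasts. Dusp16, a phosphatase that switches off MAP kinases, differed by -6.05 ± 0.40 and the glycolytic enzyme gene Eno3 by -5.18 ± 0.33. The Fc receptor gene Fcgr4 stood at 1421, 1178 and 2206 against 33270, 24740 and 45740 (-4.43 ± 0.34). Lilra5 (-6.49 ± 0.42), Serpinb6a (-2.79 ± 0.19), the lymphotoxin gene Ltb (-4.31 ± 0.33) and the complement gene C1qb (-4.66 ± 0.38) completed the 15 genes, for which the adjusted p was at most 2.98e-32 in DESeq2 and at most 7.57e-05 in edgeR. Ctsk, Dusp16 and Eno3 were lower in all 6 macrophage libraries than in Ly6Clo monocytes, at up to 82.16, 471.5 and 338.7, while Fabp4, Acp5, Pparg and C1qb reached 13430, 16350, 18530 and 338400 there.

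Genes known from each subset were read as lists. These and the lists below were chosen with earlier results of these data known, so their counts only describe the data. Of 35 tested patrolling genes 25 were called lower in Ly6Chi monocytes and 0 higher. The median log2 difference of the 35 was -2.52, against 0.02 over all tested genes, and 0 were higher also at an unadjusted DESeq2 p under 0.05. Without Ly6Clo replicate 2 the count was 22 lower and in edgeR 21 lower, with 0 higher in both. Nr4a1 stood at 7462, 4625 and 4133 against 36980, 20650 and 37670 (-2.56 ± 0.38, DESeq2 adjusted p = 2.03e-09). Cd300e, an activating receptor gene, stood at 50.91, 30.36 and 3.644 against 18350, 42870 and 24800, and was close to absent in Ly6Chi monocytes (-9.98 ± 0.84, DESeq2 adjusted p = 3.25e-29). Treml4, whose protein binds dying cells, stood at 2922, 2263 and 2970 against 26720, 65740 and 33070. Itgax, the CD11c gene, and Ear2, a secreted ribonuclease gene, differed by -4.54 ± 0.46 and -3.61 ± 0.31, and Cd274, which encodes the checkpoint ligand PD-L1, by -3.34 ± 0.34. The chemokine receptor gene Cx3cr1, often used to mark Ly6Clo cells, was not called: it stood at 22160, 17130 and 16790 against 31000, 6815 and 24750 (-0.16 ± 0.52, DESeq2 adjusted p = 0.913), and without the low Ly6Clo replicate 2 the difference was -0.58 (DESeq2 adjusted p = 0.465). DESeq2 on the 5 other monocyte libraries alone gave the same difference and called it (adjusted p = 0.00732). The integrin gene Itgal, at 23000, 23240 and 20870 against 39980, 100300 and 43410, was called with all libraries (DESeq2 adjusted p = 0.0244) and not without Ly6Clo replicate 2 (0.138).

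Of 25 tested classical genes 12 were called higher and 1 lower, and the median difference was 1.53. The 12 include Ly6c1, a gene of the antigen used in the sort, so its call follows from the gate. Without Ly6Clo replicate 2 the counts were again 12 and 1, in edgeR 9 and 0, and without any 1 of the Ly6Chi libraries 6 and 1. Fn1, the fibronectin gene, stood at 93180, 115400 and 103900 against 747.8, 1.34 and 519.1 (7.94 ± 1.60, DESeq2 adjusted p = 3.98e-05), and the matrix proteoglycan gene Vcan at 1775, 2929 and 2127 against 0, 0 and 12.19. Ccr2 stood at 79130, 74940 and 85960 against 22360, 25460 and 15710 (1.92 ± 0.42, DESeq2 adjusted p = 0.000236), so every Ly6Clo library kept at least 15710 normalized counts of it. Lyz2, the lysozyme gene, differed by 1.10 ± 0.31 (DESeq2 adjusted p = 0.00821). The exception was Pltp, a lipid transfer gene listed as classical, at 2044, 1445 and 2289 against 16270, 2314 and 20070 (-2.74 ± 0.67, DESeq2 adjusted p = 0.00136). S100a8 and S100a9, the alarmin genes abundant in neutrophils, were not called (0.93 ± 0.84 and 1.13 ± 0.96, DESeq2 adjusted p = 0.588 and 0.555). Cd177, at 31910, 32390 and 34510 against 5459, 4423 and 3607, had no DESeq2 adjusted p over 12 libraries and was called in the fit on the 6 monocyte libraries (DESeq2 adjusted p = 1.04e-12), where the list reached 19 higher.

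**Figure D3:**
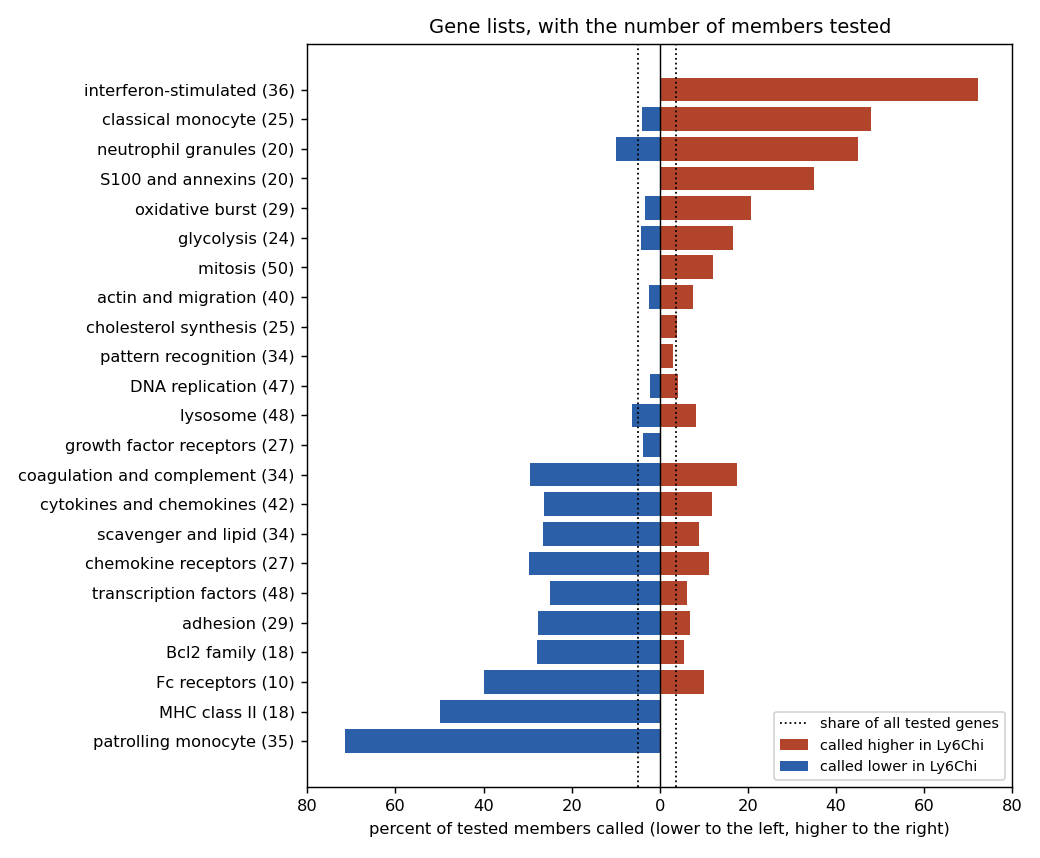
Percent of the tested members of each function list (the marker lists of other cell types are not drawn) that were called higher (red, to the right) or lower (blue, to the left) in Ly6Chi monocytes, with the number tested in parentheses. Dotted lines mark the shares over all tested genes, 3.66% higher and 4.97% lower. The interferon-stimulated list has the longest bar on the right and the patrolling list the longest on the left.

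Interferon-stimulated genes form the antiviral programme that type I interferon switches on through STAT2 and IRF9. Of 38 genes listed, 36 were tested, 26 were called higher in Ly6Chi monocytes and 0 lower, and all 36 had a positive difference, with a median of 1.57. Without Ly6Clo replicate 2 the count was 29 higher, in edgeR 23, and over the 21 alternative settings it ran from 20 to 34 with 0 lower. Irf7, the factor that amplifies the interferon response, stood at 33730, 21500 and 32340 against 10730, 5716 and 9967 (1.73 ± 0.38, DESeq2 adjusted p = 0.000189). Ifi211, a DNA sensor relative, stood at 3738, 3209 and 3637 against 631.5, 681.9 and 573.9 (2.49 ± 0.28), and Oasl2 at 19040, 13020 and 16880 against 5176, 4956 and 4798 (1.71 ± 0.31). Mx1 and Rsad2, whose proteins restrict viruses, differed by 1.69 ± 0.30 and 1.75 ± 0.36, and Isg15, a ubiquitin-like modifier, by 1.76 ± 0.38. Among receptors for viral RNA, Ifih1 (0.96 ± 0.26) and Ddx58 (1.40 ± 0.39) were called. Usp18, which damps interferon signalling, rose with the rest (1.61 ± 0.38). Oas3 stood at 18550, 11130 and 14970 against 5789, 222.4 and 4324 and was called only without Ly6Clo replicate 2 (DESeq2 adjusted p = 0.0571 with it and 0.00235 without it). The signalling gene Irf9 was not called, while Stat2 was (1.89 ± 0.52). Ly6Chi replicate 2 was the lowest of its group for Irf7, Oasl2, Mx1, Rsad2 and Isg15.

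The promoters of these genes were then read for the interferon-stimulated response element, searched as GAAA, any 2 bases and GAAA again, on both strands in the 250 bases before and 50 bases after each RefSeq gene start of GRCm38.p6. Of all 27025 genes with a promoter sequence 3.99% held a match. Of the 25 tested interferon-stimulated genes with a promoter sequence 15 held one, and of the 18 called ones 11 (61.1%). Of all genes called higher 7.80% held a match, 6.00% when the interferon-stimulated list was left out, and of genes called lower 4.13%. A match is a description of the sequence and does not show binding. To show where the element lies, the 150 bases before the start of 4 called genes are given on the strand of the gene, with matches in capitals.
Ifi211, chr1:173913047-173913196, minus strand: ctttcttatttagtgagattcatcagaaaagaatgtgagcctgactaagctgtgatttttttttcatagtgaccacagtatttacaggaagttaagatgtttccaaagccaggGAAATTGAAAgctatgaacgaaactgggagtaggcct
Oas1a, chr5:120907526-120907675, minus strand: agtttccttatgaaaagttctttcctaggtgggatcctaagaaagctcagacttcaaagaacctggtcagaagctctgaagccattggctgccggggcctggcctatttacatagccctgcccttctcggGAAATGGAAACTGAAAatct
Trim30a, chr7:104465194-104465343, minus strand: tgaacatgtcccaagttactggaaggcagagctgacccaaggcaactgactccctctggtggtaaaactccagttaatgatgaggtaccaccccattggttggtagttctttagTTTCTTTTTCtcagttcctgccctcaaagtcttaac
Rsad2, chr12:26456453-26456602, minus strand: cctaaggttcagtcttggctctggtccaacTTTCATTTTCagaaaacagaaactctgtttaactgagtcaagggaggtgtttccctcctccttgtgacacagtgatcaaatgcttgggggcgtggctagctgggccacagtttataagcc
Counted back from the gene start, the nearest match ends at base 28 in Ifi211, at base 5 in Oas1a, at base 27 in Trim30a and at base 111 in Rsad2, and the matches of Trim30a and Rsad2 lie on the opposite strand. In Oas1a a pair of matches overlap. Trim30a and Oas1a were called with differences of 1.24 ± 0.25 and 1.23 ± 0.24.

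MHC class II genes present peptides to CD4 T cells. Of 18 listed and tested genes 9 were called lower in Ly6Chi monocytes and 0 higher (median -1.31), against 7 lower without Ly6Clo replicate 2 and 7 in edgeR. H2-Aa stood at 22310, 13410 and 26070 against 150700, 122000 and 135900 (-2.73 ± 0.35, DESeq2 adjusted p = 1.12e-12), and H2-Eb1 at 13450, 8302 and 13490 against 152300, 114600 and 124800 (-3.48 ± 0.34, DESeq2 adjusted p = 4.93e-22). H2-Ab1 stood at 32190, 20220 and 40570 against 208400, 637000 and 209700, so Ly6Clo replicate 2 raised its difference from -2.75 without that library to -3.50 with it. Cd74, the invariant chain that guards the peptide groove, differed by -2.46 ± 0.50, and the loading modulators H2-Oa and H2-Ob by -4.50 ± 0.55 and -4.27 ± 0.72. H2-DMb1 and the low H2-Eb2 were called with all libraries (DESeq2 adjusted p = 0.0182 and 0.00413) and not without Ly6Clo replicate 2 (0.0580 and 0.17). Ciita, the master regulator of the class, was not called (-0.61 ± 0.68, DESeq2 adjusted p = 0.677). H2 genes are near-identical to each other in parts, which makes the split of their reads uncertain.

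**Figure D4:**
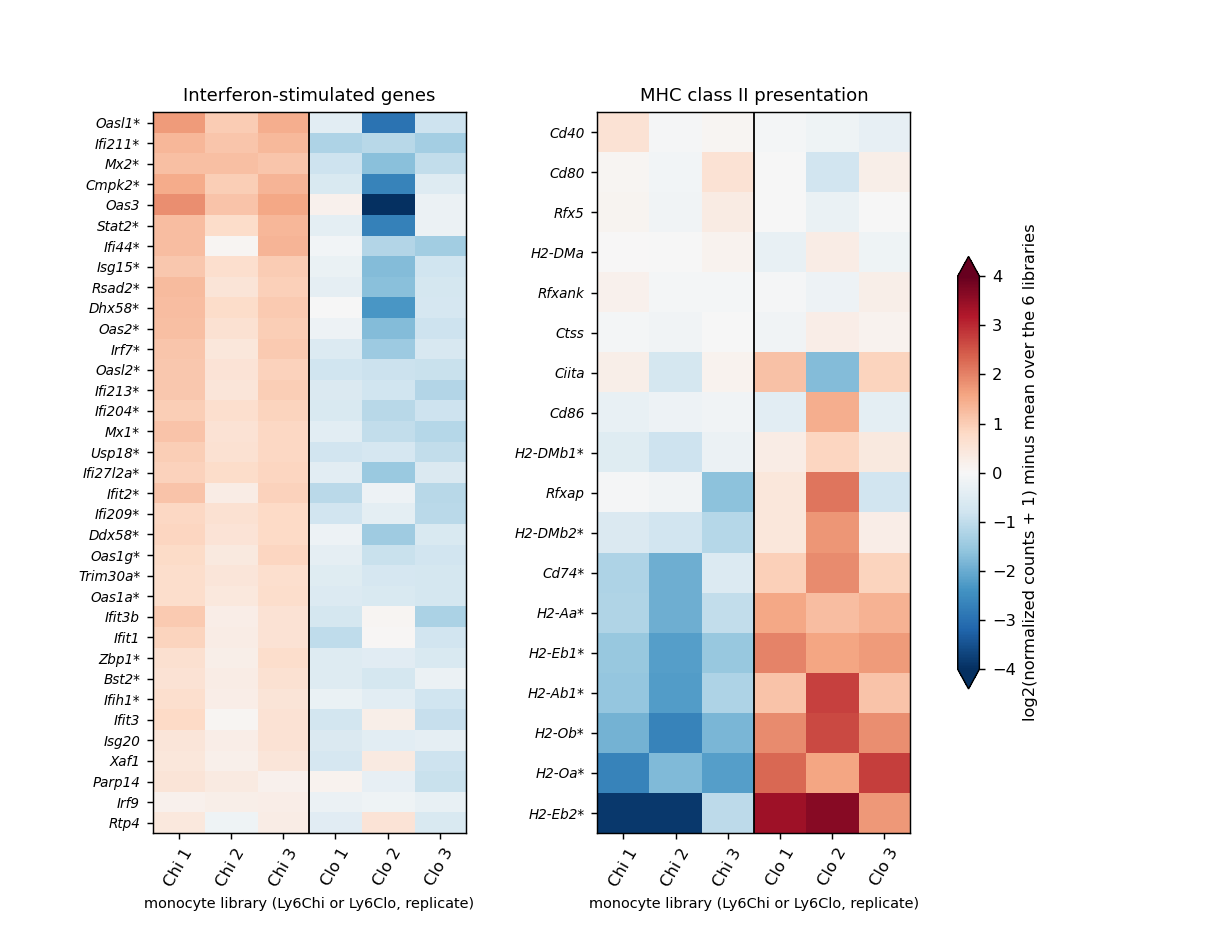
Level of interferon-stimulated (left) and MHC class II (right) genes in the 6 monocyte libraries, as log2(normalized counts + 1) minus the mean of the gene over the 6 libraries (red higher, blue lower). An asterisk marks genes called by DESeq2. The left panel is red in the 3 Ly6Chi columns for the 26 called genes, the lower part of the right panel is red in the 3 Ly6Clo columns, and the deepest blue of the interferon panel is Oas3 in Ly6Clo replicate 2.

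MHC class II promoters share a Y box that the factor NF-Y binds, searched here as CTGATTGG on both strands in the same windows. It was found in 4.70% of the 27025 promoters, in 4 of the 12 tested MHC class II genes with a promoter sequence (33.3%), all 4 among the 7 called ones (57.1%), and in 6.55% of all genes called lower. It is printed in capitals in the 150 bases before the start of 2 strongly differing members.
H2-Eb1, chr17:34305717-34305866, plus strand: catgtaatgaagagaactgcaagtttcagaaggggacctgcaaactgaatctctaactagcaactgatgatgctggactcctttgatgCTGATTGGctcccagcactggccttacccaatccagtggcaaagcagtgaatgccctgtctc
H2-Aa, chr17:34287824-34287973, minus strand: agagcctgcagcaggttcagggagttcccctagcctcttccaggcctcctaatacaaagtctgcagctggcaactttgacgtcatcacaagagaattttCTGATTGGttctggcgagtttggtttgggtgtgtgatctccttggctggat
Counted back from the gene start, the Y box ends at base 55 in H2-Eb1 and at base 44 in H2-Aa. Markers of dendritic cells, which also carry MHC class II, moved with these genes, and their part in the result was not tested. Of 14 tested dendritic cell markers 8 were called lower in Ly6Chi monocytes and 1 higher (7 and 1 without Ly6Clo replicate 2, 5 and 1 in edgeR). Their summed level was 429.3 to 490.6 CPM (the counts of the list scaled to the library total) in Ly6Chi libraries, 1175 and 1109 in Ly6Clo replicates 1 and 3, and 3137 in Ly6Clo replicate 2. The lectin gene Cd209a stood at 2748, 2727 and 2803 against 16230, 91250 and 16950, Zbtb46, a factor that defines conventional dendritic cells, at 57.27, 94.73 and 71.67 against 951.5, 172.8 and 679.6, and Ccr7, the receptor that guides dendritic cells to lymph nodes, at 0, 0 and 0 against 1970, 601.6 and 375.9. Measured against a floor of 3 counts per library, Ccr7 was at least 282-fold higher in Ly6Clo monocytes, or at least 140-fold without Ly6Clo replicate 1, where it was highest. The cross-presenting markers Xcr1 and Clec9a reached at most 129.9 and 351.4 normalized counts in any monocyte library.

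Of 48 tested genes of transcription factors that monocytes and their relatives use, 12 were called lower in Ly6Chi monocytes and 3 higher (10 and 5 without Ly6Clo replicate 2, 9 and 1 in edgeR), and only 1 was higher without Ly6Chi replicate 1 or without Ly6Chi replicate 2. Bhlhe40 stood at 723.3, 395.9 and 346.2 against 4808, 5596 and 5195 (-3.41 ± 0.33, DESeq2 adjusted p = 9.83e-23). Myc, which drives growth, differed by -2.33 ± 0.35, the oxysterol receptor gene Nr1h3 by -2.57 ± 0.31 and Ets2 by -2.47 ± 0.45. Tcf7l2, the effector of Wnt signalling, depended on 1 library for its size: it stood at 320.3, 252.6 and 354.7 against 6088, 57450 and 8996, which gave -6.29 ± 0.69 with all libraries and -4.61 ± 0.42 without Ly6Clo replicate 2. Klf4, known to be needed for monocyte formation, was 1.27 lower on the log2 scale (DESeq2 adjusted p = 0.00324). Hes1, Nr4a2 and Maf were called lower only with Ly6Clo replicate 2 in the fit. On the higher side stood Irf7, Id1 (1.68 ± 0.57) and Rxra (1.62 ± 0.47), and Cebpa was called higher only without Ly6Clo replicate 2 (1.28, DESeq2 adjusted p = 0.00147). The myeloid master regulator Spi1 was not called and stood at 23330 to 30930 in Ly6Chi and 20060 to 27460 in Ly6Clo libraries, and Irf8 was not called either (1.29 ± 0.65, DESeq2 adjusted p = 0.231).

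Among receptors that guide migration, 3 of 27 tested chemokine and attractant receptors were called higher and 8 lower (2 and 7 without Ly6Clo replicate 2, 2 and 3 in edgeR), with 5 lower without Ly6Chi replicate 1. Next to Ccr2, Ccr1 was higher in Ly6Chi monocytes, at 2163, 3534 and 3580 against 445.6, 750.3 and 311.9 (2.62 ± 0.49, DESeq2 adjusted p = 6.09e-06). The complement fragment receptors C5ar1 (-1.34 ± 0.28) and C3ar1 (-1.68 ± 0.36) and the formyl peptide receptor Fpr1 (-1.48 ± 0.46) were lower. Ccr3, known from eosinophils, stood at 26.51, 59.51 and 57.1 against 345.5, 592.2 and 430.7 (-3.26 ± 0.40). Of 29 tested adhesion genes 2 were called higher and 8 lower (3 and 7 without Ly6Clo replicate 2, 2 and 4 in edgeR), with 4 or 5 lower when Ly6Clo replicate 3 or any Ly6Chi library was left out. On the higher side, the integrin gene Itga1, whose product binds collagen, stood at 1080, 1094 and 671.8 against 32.25, 0 and 1.016 (6.38 ± 0.95, DESeq2 adjusted p = 3.15e-09). Lower were Itgax, Adgre4 (-2.77 ± 0.34), Pecam1 (-3.42 ± 0.38), Itgb5 (-1.84 ± 0.29) and Itgb1 (-1.19 ± 0.39). Itga5, a subunit of the fibronectin receptor, stood at 4212, 4548 and 4441 against 1415, 21.44 and 1448 and was called higher only without Ly6Clo replicate 2 (DESeq2 adjusted p = 0.00592).

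Coagulation and complement genes moved in both directions, 6 of 34 tested genes higher and 10 lower (6 and 9 without Ly6Clo replicate 2, 3 and 8 in edgeR). The count of higher genes was 3 without Ly6Chi replicate 2 and 3 without Ly6Chi replicate 3. Higher were C3, the central complement component (53360, 57130 and 50370 against 7436, 2532 and 7199, 3.23 ± 0.65), its activators Cfb (3.99 ± 0.72) and Cfp (0.85 ± 0.29), and the clotting genes F13a1, F10 (2.25 ± 0.66) and Thbs1. Lower were the C1q chain genes C1qa, C1qb and C1qc, the receptors C3ar1 and C5ar1, and Cd55 and Cd59a, which protect cells from complement. C1qa stood at 398.8, 228.3 and 230.8 against 12690, 2434 and 7303 (-4.71 ± 0.55, DESeq2 adjusted p = 5.22e-15). C1q genes are also markers of bone marrow macrophages, where C1qa reached 65000 to 177900.

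Several genes of the primary granules, which granulocyte and monocyte progenitors make, were higher in Ly6Chi monocytes. Of 20 tested neutrophil granule genes, which span several granule types, 9 were called higher and 2 lower (8 and 1 without Ly6Clo replicate 2, 7 and 0 in edgeR), and without Ly6Chi replicate 1, Ly6Chi replicate 2 or Ly6Clo replicate 1 the count of lower genes was 0. Elane, the neutrophil elastase gene, stood at 16080, 9553 and 11100 against 7.639, 0 and 80.25 (8.71 ± 1.70, DESeq2 adjusted p = 1.90e-05), and Mpo, the myeloperoxidase gene, at 24360, 15550 and 15210 against 480.4, 131.3 and 463.2 (5.68 ± 0.73, DESeq2 adjusted p = 1.26e-12). Ctsg and the progenitor membrane gene Ms4a3 moved with them (3.93 ± 1.07 and 6.10 ± 1.52). Ly6Chi replicate 1 was the highest of its group for all 4. The 2 lower genes were the metalloproteases Mmp9 and Mmp25, which belong to later granules, and Mmp9 stood at 32.88, 14.57 and 194.4 against 8069, 990.1 and 5330. Progenitor markers summed to 925 to 1423 CPM in Ly6Chi and 54.64 to 160.9 in Ly6Clo libraries, with 5 of 12 higher (4 in edgeR). These 5 are Mpo, Elane, Prtn3, Ctsg and Ms4a3, which the granule list also holds. The list was split, with 6 positive and 6 negative differences. DESeq2 on the 5 monocyte libraries without Ly6Clo replicate 2 called 6 higher and 3 lower. The stem and progenitor markers Kit and Flt3 were not called.

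Of 50 tested genes of the mitotic machinery 6 were called higher and 0 lower (5 and 0 in edgeR). This is 12.0% of the list, against 8.62% of all tested genes called and 3.66% called higher. The median log2 difference of the 50 was 0.68. The count of higher genes was 11 without Ly6Clo replicate 2 and 11 without Ly6Clo replicate 1, and over the 21 alternative settings it ran from 3 to 19. The called genes included Racgap1 and Anln of the cleavage furrow (2.09 ± 0.43 and 1.92 ± 0.36), the motor gene Kif11 (1.46 ± 0.41) and the kinase gene Aurkb, at 1828, 1889 and 1839 against 675.6, 862.8 and 819.8 (1.24 ± 0.32, DESeq2 adjusted p = 0.00283). Of 47 DNA replication genes 2 were called higher and 1 lower (1 and 0 in edgeR), a share of 6.38% that lay below the 8.62% of all genes, and 4 were higher without Ly6Clo replicate 1 and 4 without Ly6Clo replicate 2. Top2a, a marker of cycling cells, stood at 1968, 2053 and 1726 against 1243, 175.5 and 646.1 and was not called with all libraries (DESeq2 adjusted p = 0.0647).

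The S100 and annexin genes, calcium-binding proteins of the membrane and cytoskeleton, were called higher in 7 of 20 tested members and lower in 0 (8 and 0 without Ly6Clo replicate 2, 6 and 0 in edgeR). Anxa2 stood at 44520, 47060 and 44280 against 14930, 16170 and 16490 (1.51 ± 0.24), S100a6 at 26440, 27750 and 25040 against 6909, 6360 and 6120 (2.03 ± 0.36), and S100a10, the partner of annexin A2, differed by 2.14 ± 0.39. In all 3 genes the 3 Ly6Clo libraries stood close together. Capg, which caps actin filaments, had the lowest adjusted p of the actin genes, at 28860, 28140 and 27820 against 2265, 6920 and 2339 (2.88 ± 0.43), while 3 of 40 actin genes were called higher and 1 lower, in all 4 of 40, a share close to the 8.62% of all tested genes. The counts were 2 and 2 without Ly6Clo replicate 2 and 1 and 1 in edgeR, and 1 was higher without any 1 of the Ly6Chi libraries or Ly6Clo replicate 3.

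The Bcl2 family holds genes that protect cells and genes that kill them, and 5 of 18 tested members were called lower and 1 higher. Next to the 3 copies of Bcl2a1, the survival gene Bcl2 stood at 184.5, 155.5 and 85.04 against 1829, 1731 and 1453 (-3.56 ± 0.59, DESeq2 adjusted p = 1.72e-07). Pmaip1, whose product promotes apoptosis, was also lower, at 2292, 1425 and 2387 against 6355, 21250 and 8696, and the pro-apoptotic Bad was higher (1.11 ± 0.31). The counts were the same without Ly6Clo replicate 2 and in edgeR, and Bad was not called without Ly6Chi replicate 3.

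Of 10 tested Fc receptor genes, whose products mostly bind antibodies, 1 was called higher and 4 lower, with the same counts without Ly6Clo replicate 2 and in edgeR. Fcgr1, the high-affinity receptor gene, was higher in Ly6Chi monocytes at 7691, 5992 and 8095 against 2718, 1999 and 2241 (1.65 ± 0.26, DESeq2 adjusted p = 3.69e-08). Fcgr4 and Fcgrt, the gene of the receptor that recycles antibody (-2.32 ± 0.31), were lower, as were Fcrl1 and Fcrla, both known from B cells. B cell markers summed to 548.7 to 602.9 CPM in Ly6Chi and 663 to 1510 in Ly6Clo libraries, the highest in Ly6Clo replicate 2, with 3 of 13 lower (2 in edgeR), and their part in the levels of Fcrl1 and Fcrla was not tested.

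Scavenger and lipid genes were called higher in 3 of 34 tested members and lower in 9 (4 and 10 without Ly6Clo replicate 2, 2 and 8 in edgeR), with 5 higher without Ly6Clo replicate 1 or replicate 3. The scavenger receptor gene Msr1 went against the others, at 7347, 8766 and 8040 against 944.7, 1545 and 957.9 (2.81 ± 0.36, DESeq2 adjusted p = 8.82e-13), as did the lysosomal cholesterol carrier Npc2 (1.34 ± 0.35) and Cpt1a, which admits fatty acids to mitochondria (1.30 ± 0.41). On the lower side, beside Cd36, Fabp4 and Pparg, stood Apoe (128800, 133600 and 186800 against 530300, 860700 and 715700, -2.23 ± 0.37) and the cholesterol exporters Abca1 (-1.87 ± 0.47) and Abcg1 (-1.08 ± 0.28), which are textbook targets of the receptor that Nr1h3 encodes. The scavenger receptor Marco stood at 0 in all Ly6Chi libraries and at 5.942, 158.1 and 37.59 in Ly6Clo, which against the same floor is at least 19.3-fold higher, or at least 6.24-fold without Ly6Clo replicate 2. Among 48 lysosomal genes 4 were higher (2 without any 1 of the Ly6Chi libraries, 2 in edgeR) and 3 lower (5 without Ly6Clo replicate 1). The counts were 5 and 4 without Ly6Clo replicate 2. With all libraries 14.6% of the list was called, against 8.62% of all tested genes, of which 4.97% were lower. The 3 lower ones were Ctsk, Lgmn (-1.73 ± 0.38) and Atp6v0d2, a proton pump subunit gene known from osteoclasts. Atp6v0d2 stood at 0, 0 and 10.93 against 842, 1773 and 1556. In macrophages Atp6v0d2 stayed at or below 56.25.

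Cytokine and chemokine genes were called higher in 5 and lower in 11 of 42 tested members (5 and 13 without Ly6Clo replicate 2, 3 and 8 in edgeR), with 3 higher without any 1 of the Ly6Chi libraries. Higher in Ly6Chi monocytes were Tgfbi, a matrix protein gene that TGF-beta induces (54280, 54580 and 51140 against 15610, 3207 and 10620, 2.44 ± 0.52), the interferon-induced chemokine Cxcl10 (1.97 ± 0.40), Tnfsf13 (1.77 ± 0.35), Il15 and Ccl2. Lower were Il1b, the gene of a central inflammatory cytokine, at 514.4, 1105 and 752 against 4499, 3944 and 4604 (-2.46 ± 0.41), and the growth factor genes Igf1 (-2.66 ± 0.31) and Pdgfb (-5.53 ± 0.73). The chemokine genes Cxcl16, Ccl4 and Ccl5 were lower as well (-3.38 ± 0.37, -3.04 ± 0.51 and -2.79 ± 0.32). Pf4, a platelet chemokine, stood at 29.69, 17 and 4.859 against 768.2, 960.6 and 682.6, and platelet and megakaryocyte markers as a whole summed to 4.345 to 5.73 CPM in Ly6Chi and 44.3 to 50.29 in Ly6Clo libraries, with 4 of 12 lower and 1 higher (2 and 0 in edgeR). Their part in the level of Pf4 was not tested.

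The share of called genes was below the 8.62% of all tested genes in 3 further lists. Of 34 pattern recognition genes only Lbp was called (2.24 ± 0.64, not called without Ly6Chi replicate 1), of 27 growth factor receptors only Tgfbr3 (-3.64 ± 0.74), and of 25 cholesterol synthesis genes only Mvd (1.84 ± 0.44), shares of 2.94% and 3.70% in the former lists. In edgeR Tgfbr3 and Mvd were called and Lbp was not (edgeR adjusted p = 0.0864). Such small counts moved with single libraries. The pattern recognition list had 2 genes higher without Ly6Clo replicate 1, 3 higher without Ly6Clo replicate 3, and 1 higher and 1 lower without Ly6Clo replicate 2 or without Ly6Chi replicate 2. The growth factor receptors had 1 higher and 2 lower without Ly6Clo replicate 1 or replicate 3, and the cholesterol list had 2 higher without Ly6Clo replicate 1. The M-CSF receptor gene Csf1r stood at 111300, 101700 and 113400 against 170900, 16340 and 168200, so its group was divided by Ly6Clo replicate 2, and it was not called with or without that library in the fits that include macrophages (DESeq2 adjusted p = 0.951 and 0.303). DESeq2 on the 5 other monocyte libraries alone called it lower in Ly6Chi monocytes (-0.64, adjusted p = 3.68e-06). Of 24 glycolysis genes 4 were higher, among them Hk3 (1.56 ± 0.31) and Ldhb (1.86 ± 0.50), and 1, Eno3, was lower, which is 20.8% of the list. The counts were 4 and 3 without Ly6Clo replicate 2, 2 and 2 without Ly6Chi replicate 2, and 3 and 1 in edgeR. Of 29 genes of the oxidative burst and its defence 6 were higher and 1, the catalase gene Cat, was lower (-0.76 ± 0.20), which is 24.1% of the list. The counts were 8 and 1 without Ly6Clo replicate 2 and 4 and 0 in edgeR.

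Markers of other marrow cells were read in the same way. By the sort described above, T cells, cells without CD45 such as stromal cells, and cells with high Gr1 such as mature neutrophils would be removed, and the study set eosinophils apart from monocytes by light scatter. Macrophage markers were called lower in Ly6Chi monocytes in 10 of 14 tested members (11 without Ly6Clo replicate 2, 9 in edgeR) and summed to 505.8 to 626.5 CPM in Ly6Chi, 948.9 to 2590 in Ly6Clo and 69120 to 90540 in macrophage libraries. Vcam1 stood at 1274, 1030 and 1079 against 4628, 2125 and 6515 (-1.97 ± 0.40), and Cd163 and Fcna differed by -2.09 ± 0.43 and -2.84 ± 0.31. Mature neutrophil markers overlapped between the groups, at 7444 to 10380 against 3767 to 8170 CPM, and the 2 called lower, Ly6g and Mmp9, were not called without Ly6Clo replicate 2, where Mmp9 had no adjusted p, and neither was called in edgeR or without Ly6Chi replicate 1 or Ly6Chi replicate 2. T and NK cell markers summed to at most 29.44 CPM in Ly6Chi and 94.45 in Ly6Clo libraries, with 3 of 16 lower (4 without Ly6Clo replicate 2, 2 in edgeR), among them the NK receptor gene Klrd1 (-4.89 ± 0.57), and 1, Nkg7, higher (1.85 ± 0.35). Of 16 erythroid markers 0 were called by DESeq2 and 0 by edgeR, with 1 lower at an unadjusted DESeq2 p under 0.05, against 4 called lower without Ly6Clo replicate 2. Single libraries carried 2 further signals: the eosinophil granule genes Prg2 and Epx stood at 9054 and 1955 in Ly6Clo replicate 3 and at most 12.73 and 2.429 in the other 5 monocyte libraries, and the basophil protease gene Mcpt8 stood at 646.3 in Ly6Chi replicate 3 and at most 6.363 in the other 5. With these 3 genes, 4 of 12 tested markers of eosinophils, basophils and mast cells were called lower and 1 higher (2 and 0 in edgeR), against 5 lower and 1 higher without Ly6Clo replicate 2, 2 lower and 2 higher without Ly6Clo replicate 3 and 6 lower and 0 higher without Ly6Chi replicate 3. Stromal and endothelial markers summed to 18.04 to 127.5 CPM in Ly6Chi and 144.6 to 275 in Ly6Clo libraries, with 3 of 13 lower (2 without Ly6Clo replicate 2, 1 without Ly6Chi replicate 3, 1 in edgeR). Their median difference was -1.01, and without Ly6Clo replicate 1 it was 0.63, with 2 higher and 3 lower. The part of any of these cells in the differences above was not tested.

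**Figure D5:**
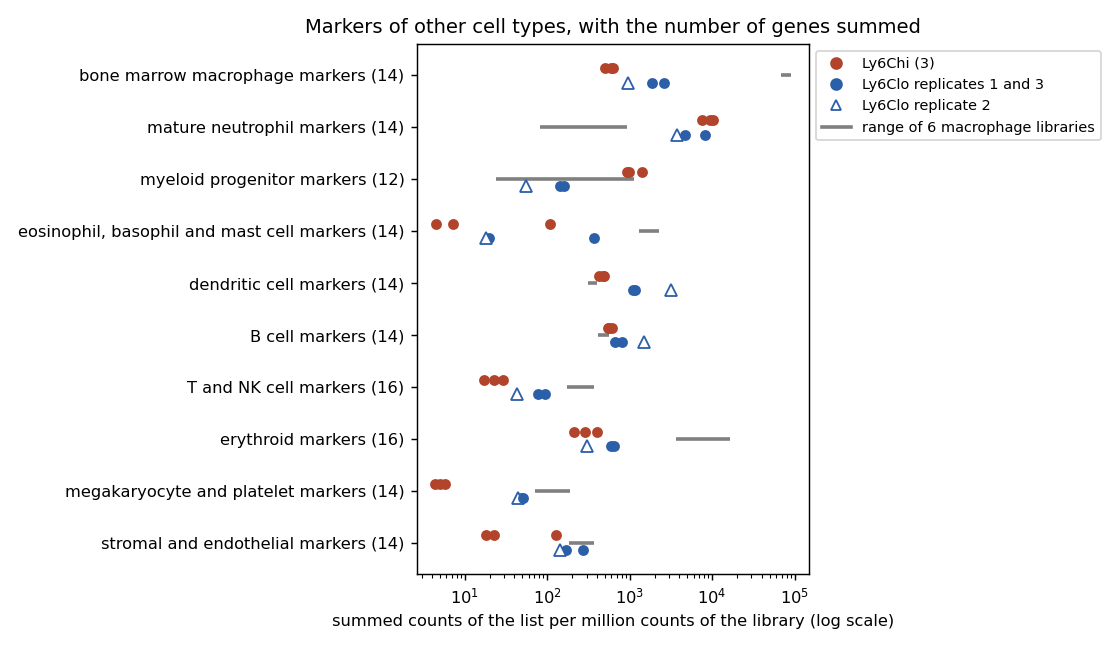
Summed CPM of the markers of other cell types (log scale), with the number of genes in parentheses. Red points are Ly6Chi libraries, blue points Ly6Clo replicates 1 and 3, open triangles Ly6Clo replicate 2, and grey bars the range of the 6 macrophage libraries. Macrophage markers in monocytes reach at most 2590, against 69120 or more in macrophages, and dendritic cell markers are highest in Ly6Clo replicate 2 (3137).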

How the data were processed

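Monocytes were sorted, their RNA was turned into full-length cDNA that was amplified by PCR without molecular identifiers, and tagmented libraries were sequenced. The authors trimmed and corrected reads, removed ribosomal reads, mapped them to GRCm39 with segemehl and counted unambiguous read pairs on exons with featureCounts. They deposited 3 tables of 12 libraries: raw counts, TPM, and DESeq2 variance-stabilised values on a log2 scale. Use of strand in the counting is not given in the sources used here, so overlapping antisense genes cannot be told apart. Per the submitters' processing notes, reads were demultiplexed with bcl2fastq 2.20.0.422.

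From the deposited counts, 1 DESeq2 1.42.0 model (R 4.3.3) of all 12 libraries with the group as factor gave Wald tests of Ly6Chi minus Ly6Clo, with Benjamini-Hochberg adjustment over all genes, independent filtering at 0.05 and the Cook's distance cutoff. All 4 groups thus set the dispersion of a gene. Tested on a single simulated data set, this model exceeded its nominal share of false calls and edgeR did not. That set held no library lying apart like Ly6Clo replicate 2. Alternatives were edgeR 4.0.16 (quasi-likelihood), limma 3.58.1 on the TPM, other size factors, filters and libraries, and a GC and length correction with mgcv 1.9.3. Depth was 26390927 to 38730531 counts per monocyte library, and precision covers counting error and the spread of 3 libraries only. Symbols came from GENCODE M21 for 91.4% of identifiers, and promoters from RefSeq (GRCm38.p6). Coordinates of both builds were not mixed.

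Named were the first 15 genes higher and lower by adjusted p with a proper symbol, a mean of at least 50 normalized counts, no overlap between the groups and the same call without Ly6Clo replicate 2. The sorting markers and those members that carry or define each gene list were named as well. Summed marker levels are CPM. Samples were grouped by their titles. The members and lists were chosen with earlier results of these data known. Some genes that the rule or a list covers are counted but not reported here by name.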

Additional observations from a re-analysis of the deposited data

How the results depend on the processing

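The direction of the named differences was stable and the number of calls was not. Of 3358 values for the 160 called genes over 21 alternatives, 3018 stayed past the threshold, 339 lost it and 1 turned, and 101 genes were called under every alternative. The value that turned was Epx without Ly6Clo replicate 3 (2.02), the upper end of a range that began at -24.92 without Ly6Chi replicate 2. The largest losses came with edgeR and the replicate block (51 genes), limma on log2(TPM + 1) with no filter (32) and edgeR (31), and 12 genes were lost without Ly6Clo replicate 2. Among genes that were not called, 38 values passed the threshold under an alternative and 15 changed sign. Csf1r turned to 0.48 in all limma fits, and leaving out 1 library gave -0.64 (Ly6Clo replicate 2) to 0.24 (Ly6Clo replicate 1), with 0.22 without Ly6Clo replicate 3. Cx3cr1 turned to 0.089 in limma on log2(TPM + 1), filtered or not, and to 0.092 on log2(TPM + 0.1), and leaving out 1 library gave -0.58 (Ly6Clo replicate 2) to 0.24 (Ly6Clo replicate 1). Ptprc turned to 0.28 in edgeR and 0.29 in both DESeq2 fits without Ly6Clo replicate 2, and was lowest without Ly6Clo replicate 3 (-0.38). After correction for GC content and length, Cebpa was at -0.79, Irf9 at -0.035 and Spi1 at -0.33. Beside the 1860 genes called (789 higher and 1071 lower), edgeR called 829 (348 and 481), or 1091 (414 and 677) without Ly6Clo replicate 2. DESeq2 on the 6 monocyte libraries called 1191 (516 and 675), and on 5 of them, without Ly6Clo replicate 2, 3539 (1954 and 1585). limma called 1219 on log2(TPM + 1) (551 and 668), 1097 on log2(TPM + 0.1) (456 and 641) and 969 with no filter (484 and 485). Leaving out 1 monocyte library at a time gave 1205 to 2290 genes, 449 to 1073 higher and 726 to 1217 lower. The cause of these changes was not tested. Of the other settings, which left the count within 1.5 times, TMM gave 1872, library totals 1920, dropping the Cook's distance cutoff 1901, dropping independent filtering 1472, asking for 10 counts in at least 3 libraries 2043, the correction for GC content and length 2127 and a 2-fold minimum 1706. The first principal component of the 6 libraries held 74.1% of the variance over 500 genes, 63.6% over 19228 genes and 88.9% without Ly6Clo replicate 2. The labels number the replicates of both groups alike and do not say whether same-numbered libraries belong together. In deviations from the group mean over 2000 genes, same-numbered libraries correlated at 0.31, 0.03 and 0.02, and other-numbered ones at -0.258 to 0.141. Deviations from a mean of 3 libraries depend on each other, so these values cannot show whether the numbers are pairs. The numbers were not used as pairs in the main fit. Entered as a block, the numbers gave 2234 calls in DESeq2 (1179 and 1055) and 537 in edgeR (214 and 323). Lists of under 15 tested genes rest on few members, and genes under about 50 normalized counts rest on few reads. In Ly6Clo replicate 2 many genes had no count, so low values there limit what can be read from them.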

Other observations

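Families of related genes were also counted by their symbols. They were chosen after their values were seen, so the counts are descriptions beside the 8.62% of all tested genes that were called. Of 8 tested Schlafen genes, which restrict virus and cell growth, 7 were called higher in Ly6Chi monocytes, 7 without Ly6Clo replicate 2 and 4 in edgeR. Slfn1 stood at 22730, 18960 and 24050 against 3040, 3776 and 3144 (2.72 ± 0.45), and Slfn4 at 7462, 3903 and 5812 against 1081, 243.8 and 582.1 (3.17 ± 0.63). Of 13 tested Ifi200 genes, a cluster of DNA sensor relatives that includes 4 members of the interferon-stimulated list, 12 were called higher (11 without Ly6Clo replicate 2, 10 in edgeR). Of 7 galectin genes, whose products bind sugars, 3 were higher in both DESeq2 and edgeR, and Lgals3 stood at 69730, 73800 and 69610 against 25580, 15960 and 25820 (1.66 ± 0.29). Schlafen and Ifi200 genes include close copies, so the split of reads among their members is uncertain.

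On the lower side, 6 of 7 Cd209 lectin genes and 6 of 9 Gimap genes, known from lymphocytes, were called, both counts unchanged without Ly6Clo replicate 2, against 4 and 3 in edgeR. Gimap1 was low in every library, at 0, 0 and 9.718 against 88.28, 75.03 and 93.46. The cyclin D genes Ccnd1 and Ccnd2, which admit cells to the cycle, were both lower in Ly6Chi monocytes. Ccnd1 stood at 42.42, 31.58 and 7.289 against 769.9, 769 and 444.9 (-4.60 ± 0.60), and Ccnd2 at 116.7, 53.44 and 93.54 against 725.7, 1111 and 1453 (-3.64 ± 0.44), while the mitosis genes named in the report moved the other way. Vegfc, a growth factor gene of lymphatic vessels, stood at 12.73, 14.57 and 1.215 against 195.2, 166.1 and 349.4 (-4.63 ± 0.77) and stayed at or below 37.93 in macrophages. Of 79 ribosomal protein genes 1 was called lower and 0 higher, in DESeq2 as in edgeR, against 2 lower and 0 higher without Ly6Clo replicate 2.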
